A study of Mus musculus with 12 samples.

Results

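MHC class II genes were measured in CD8 T cells sorted by flow cytometry from mouse brain and blood around experimental stroke. The 10 genes described here were chosen by name out of 23937 genes in the table, and all 10 were present and passed the filter on low values. They are the class II chains H2-Aa, H2-Ab1 and H2-Eb1, the invariant chain gene Cd74, the peptide loading factors H2-DMa, H2-DMb1, H2-DMb2, H2-Oa and H2-Ob, and the transcriptional coactivator Ciita. RNA was sequenced from brain 3 days after stroke, brain 30 days after stroke, brain of naive mice and blood of naive mice, with 3 libraries in each of 4 groups. All 4 groups are labelled as CD8 T cells. The labels give no genotype, strain, age or sex, name neither the stroke model nor a sham operation, and leave unsaid whether samples of 1 group are from different mice. The p-values therefore rest on a spread between samples that may be technical only. Spleen is the tissue in the protocol text, but each sample is labelled brain or blood, and those labels set the groups.

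MHC class II molecules display peptides from endocytosed protein to CD4 T cells. An alpha and a beta chain pair in the endoplasmic reticulum with the invariant chain, which fills the peptide groove and carries the pair to endosomes. There proteases trim the invariant chain to a short fragment, H2-DM exchanges that fragment for peptide, and H2-O restrains H2-DM. Ciita, the coactivator, switches on nearly the whole pathway by docking on a protein assembly at the X and Y boxes of class II promoters, and interferon gamma induces it in cells that do not make it constantly. Dendritic cells, B cells and macrophages are the usual sources of class II, microglia make it after activation, and mouse T cells are known for making little or none of their own.

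On the mm10 build, 8 of the 10 genes lie in the MHC on chromosome 17, per the GENCODE vM21 annotation. From left to right these are H2-Oa at chr17:34092340-34095234, H2-DMa at chr17:34119541-34139101, H2-DMb2 at chr17:34143307-34151555, H2-DMb1 at chr17:34153072-34160230, H2-Ob at chr17:34238903-34254414, H2-Ab1 at chr17:34257689-34269419, H2-Aa at chr17:34282744-34287823 and H2-Eb1 at chr17:34305867-34316674. H2-Aa is on the minus strand and the other 7 are on the plus strand. Ciita is at chr16:10480059-10528418 on the plus strand, and Cd74 lies outside the MHC on another chromosome. Exons of H2-DMa overlap those of Brd2, exons of H2-Oa those of the antisense gene BC051537 and exons of Ciita those of Dexi, all 3 on the opposite strand, and exons of Cd74 those of the miRNA gene Mir5107 on the same strand. Without strand information the reads of the opposite-strand pairs cannot be told apart. H2-DMb1 and H2-DMb2 are near copies, and 22.7% of the 50-base stretches of H2-DMb1 also occur in H2-DMb2, so the counts of these 2 genes are uncertain where they share sequence.

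The promoters were also read for the class II boxes, as a description of sequence only. RefSeq promoter sequences of 300 bases (GRCm38.p6, 250 before to 50 after the start) matched 7 of the 10 genes. The X1 box was searched as AGNNACNGA, the Y box as CTGATTGG and its core, which lies inside the Y box, as ATTGG, each on both strands. Windows of 65 bases around the core are given on the strand of the gene, with capitals marking any match to a searched motif.
H2-Aa: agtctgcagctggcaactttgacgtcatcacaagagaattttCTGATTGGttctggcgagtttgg
H2-Eb1: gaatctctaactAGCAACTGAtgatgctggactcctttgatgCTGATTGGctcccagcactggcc
H2-DMb1: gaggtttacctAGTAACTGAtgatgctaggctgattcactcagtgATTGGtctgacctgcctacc
H2-DMb2: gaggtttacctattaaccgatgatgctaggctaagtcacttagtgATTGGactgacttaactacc
H2-Oa: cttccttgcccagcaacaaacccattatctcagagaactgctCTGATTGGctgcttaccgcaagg
H2-Ob: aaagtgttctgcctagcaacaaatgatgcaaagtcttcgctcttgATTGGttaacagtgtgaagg

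These windows are chr17:34287852-34287916 (minus strand) for H2-Aa, chr17:34305763-34305827 for H2-Eb1, chr17:34153085-34153149 for H2-DMb1, chr17:34145114-34145178 for H2-DMb2, chr17:34092291-34092355 for H2-Oa and chr17:34238803-34238867 for H2-Ob. The core begins between 43 bases (H2-Oa) and 90 bases (H2-DMb2) before the start in these 6 promoters. H2-DMa has 2 promoter entries, 1 with a core match 198 bases before the start and 1 with none. The full Y box is in H2-Aa, H2-Eb1 and H2-Oa, and an X1 match on the strand of the gene is in H2-Eb1, H2-DMb1 and, further upstream than its window, H2-Oa. H2-Ob has an X1 match on the other strand only, after the start. Among 32851 promoters of the same length, counting either strand, 17.7% hold the X1 box, 4.10% the Y box, 37.4% the core and 0.737% both the X1 and the Y box. The windows of H2-DMb1 and H2-DMb2 are the same at 56 of 65 bases, but only the H2-DMb1 window matches the searched X1 letters. A match is a match of letters, and no binding was measured.

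Depth ran from 1104490 to 21014171 reads per library, and a count of 0 allows up to 3 reads, or 0.298 to 1.65 CPM depending on the library. CPM here means counts per-million reads of a library size that the authors had scaled. The libraries split into 5 with few and 7 with many reads on receptor genes of sensory cells (olfactory, vomeronasal and taste), at 162 to 857 and 1960.4 to 7690 unscaled CPM. Replicate 1 of each stroke group and all 3 naive brain libraries had few, and replicates 2 and 3 of each stroke group and all 3 naive blood libraries had many. The 8 T cell markers, Cd8a and Cd8b1 among them, were found in every library and took 0.0613 to 0.215% of reads in day 3 brain, 0.430 to 1.17% in day 30 brain, 0.584 to 0.784% in naive brain and 0.290 to 0.429% in naive blood. Markers of cells outside the sort were also found. The 8 microglia markers took 0.0873 to 0.507% of reads in day 3 brain, 0.0686 to 0.286% in day 30 brain, 0.433 to 0.889% in naive brain and 0.0119 to 0.0232% in naive blood.

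The 10 genes together took 2.44, 0.531 and 0.558% of all reads in the 3 day 3 brain libraries, 0.0313, 0.126 and 0.159% in day 30 brain, 0.318, 0.487 and 0.368% in naive brain and 0.0425, 0.0282 and 0.0470% in naive blood. As a share of reads, every day 3 library was above every naive brain library, and every naive brain library was above every day 30 library. Day 30 replicate 1 lay inside the range of naive blood. In bulk RNA, fewer cells of a type and less RNA per cell cannot be told apart, and this holds for every result below.

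**Figure D1:**
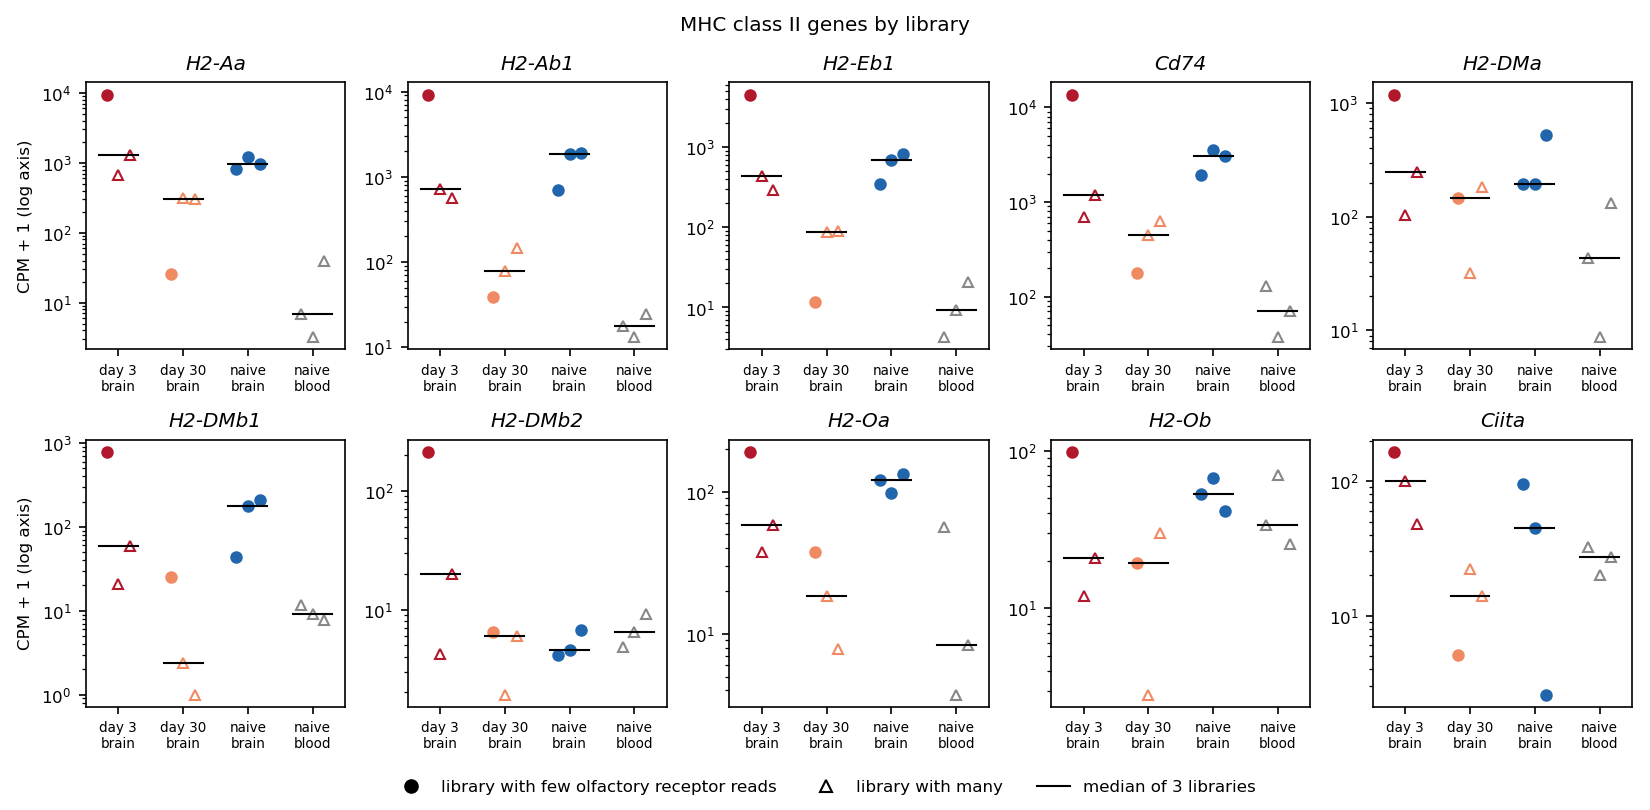
CPM + 1 on a log axis for each of the 10 genes in every library, with day 3 brain, day 30 brain, naive brain and naive blood from left to right. Filled circles are libraries with few olfactory receptor reads, open triangles are libraries with many, and the bar is the median of 3 libraries. For H2-Ab1, the 3 day 30 libraries are at 38.3, 76.7 and 145 CPM, below the 3 day 3 and the 3 naive brain libraries.

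H2-Aa, the alpha chain of I-A, had 9408, 676 and 1282 CPM in day 3 brain replicates 1 to 3, 24.9, 311 and 299 CPM in day 30 brain, 818, 1188 and 974 CPM in naive brain, against 5.95, 2.19 and 38.01 CPM in naive blood. The day 30 libraries were below every other brain library, and the lowest of them lay inside the range of naive blood. H2-Ab1, the beta chain of I-A, had 9191, 715 and 562 CPM in day 3 brain, 38.3, 76.7 and 145 CPM in day 30 brain, 707, 1834 and 1923 CPM in naive brain, against 16.8, 12.1 and 23.6 CPM in naive blood. H2-Eb1, the beta chain of I-E, had 4516, 434 and 295 CPM in day 3 brain, 10.9, 87.2 and 88.1 CPM in day 30 brain, 345, 694 and 815 CPM in naive brain, against 3.24, 8.23 and 20.1 CPM in naive blood. For all 3 chains, day 3 replicate 1 stood far above the other libraries, while the other day 3 libraries lay near or below those of naive brain. The spread within day 3 was therefore larger than its mean for H2-Aa, which averaged 3789 ± 4876 CPM in day 3 brain and 994 ± 186 CPM in naive brain (SD, n = 3 each).

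Cd74, the gene of the invariant chain at chr18:60803848-60812652 (plus strand), had 13624, 701 and 1196 CPM in day 3 brain, 177, 446 and 631 CPM in day 30 brain, 1907, 3515 and 3045 CPM in naive brain, against 129, 36.2 and 70.05 CPM in naive blood. Day 30 lay below the other brain groups and above blood with no overlap, as H2-Ab1 did. Cd74 reads per 100 reads of the 3 chains, a ratio not corrected for gene length, were 58.9, 38.4 and 55.9 in day 3 brain, 239, 93.8 and 118 in day 30 brain, 102, 94.6 and 82.04 in naive brain and 498, 161 and 85.8 in naive blood. The 3 day 3 libraries had the 3 lowest ratios of all 12.

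H2-DMa, the alpha chain of the peptide exchange factor H2-DM, had 1188, 103 and 249 CPM in day 3 brain, 145, 30.8 and 181 CPM in day 30 brain, 192, 193 and 525 CPM in naive brain, against 42.7, 7.68 and 129.9 CPM in naive blood. H2-DMb1, a beta chain of H2-DM, had 783, 19.6 and 58.9 CPM in day 3 brain, 24.5, 1.38 and 0 CPM in day 30 brain, 42.2, 178 and 208 CPM in naive brain, against 10.8, 8.23 and 6.69 CPM in naive blood. The 0 in day 30 replicate 3 allows up to 1.35 CPM at 3 reads. H2-DMb2, the second beta chain, had 212, 3.18 and 18.7 CPM in day 3 brain, 5.44, 0.918 and 4.97 CPM in day 30 brain, 3.10, 3.55 and 5.76 CPM in naive brain, against 3.79, 5.49 and 8.10 CPM in naive blood. H2-DMb1 was above blood in naive brain, whereas the H2-DMb2 values of those groups overlapped. Reads of H2-DMb2 per 100 of H2-DMb1 were 27.1, 16.3 and 31.8 in day 3 brain and 7.34, 2 and 2.77 in naive brain. They were 22.2 and 66.7 in day 30 replicates 1 and 2, and 35, 66.7 and 121 in naive blood. Day 30 replicate 3 had no H2-DMb1 reads. Naive brain lay below every other group, while day 3 and day 30 overlapped. This ratio shares the uncertainty of the near copies and rests on few reads, 7 against 43 in day 3 replicate 2.

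H2-Oa, the alpha chain of the H2-DM inhibitor H2-O, had 189, 36.4 and 56.8 CPM in day 3 brain, 36.7, 17.4 and 6.77 CPM in day 30 brain, 120.1, 97.1 and 131 CPM in naive brain, against 55.2, 2.74 and 7.39 CPM in naive blood. H2-Ob, its beta chain, had 97.3, 10.9 and 19.8 CPM in day 3 brain, 18.4, 1.84 and 28.9 CPM in day 30 brain, 51.9, 66.004 and 40.3 CPM in naive brain, against 32.99, 69.1 and 24.6 CPM in naive blood. Both were lower in every day 30 than in every naive brain library, and the H2-Ob values of naive brain overlapped those of blood. H2-O reads per 100 H2-DM reads ranged over 13.1 to 37.7 in day 3 brain, 19.2 to 58.3 in day 30 brain, 23.3 to 72.5 in naive brain and 22.1 to 336 in naive blood, and all 4 groups overlapped.

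Ciita, the coactivator, had 164, 99.2 and 46.6 CPM in day 3 brain, 4.08, 21.1 and 13.1 CPM in day 30 brain, 93.4, 43.8 and 1.59 CPM in naive brain, against 31.4, 19.2 and 26.05 CPM in naive blood. Every day 3 library was above every day 30 library and every blood library, and naive brain spanned the range of all other groups but the highest day 3 values. Ciita did not follow the chains library by library. Naive brain replicate 3 held 16 Ciita reads beside 37379 chain reads, and the 3 blood libraries held 58, 35 and 74 Ciita reads beside 48, 41 and 232 chain reads. Some of these Ciita reads may belong to Dexi, and the 3 blood libraries had many olfactory receptor reads.

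Brain at day 3 after stroke was compared with brain of naive mice, as no sham operation is named. No gene of the 10 rose or fell beyond the spread between libraries at day 3 (limma, adjusted p from 0.373 to 0.892). At an unadjusted p under 0.05 there were 2, H2-DMb2 at 2.38 ± 1.17 (log2 difference ± SE, here and below) and Ciita at 2.06 ± 0.98, beside 2870 of all genes tested (12.8%). Over all 22352 genes tested, 34 (0.152%) were called higher and 126 (0.564%) lower, where called means an adjusted p under 0.05. The 10 genes had a median log2 difference of 0.20, beside 0.50 over all genes tested. The chains were at 1.04 ± 0.83 for H2-Aa, 0.19 ± 0.76 for H2-Ab1 and 0.52 ± 0.83 for H2-Eb1, and Cd74 was at -0.28 ± 0.73. The direction of 8 of the 10 genes turned under at least 1 alternative, H2-DMb2 and Ciita being the exceptions, and without day 3 replicate 1 H2-Aa, H2-Ab1 and H2-Eb1 were at -0.076, -1.10 and -0.70. With CPM not scaled by the authors' factors H2-Aa was called higher (2.02, adjusted p = 0.0159, range over all alternatives 0.0159 to 0.9996), and with DESeq2 on the recovered reads H2-DMb2 was (4.42, adjusted p = 0.00462, range 0.00462 to 0.878).

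Those same alternatives change the split of all called genes, which was 115 up and 110 down for unscaled CPM, 25 up and 31 down after quantile normalization, 800 up and 175 down by DESeq2 and 16 up and 1 down by edgeR. Among libraries with few olfactory receptor reads, day 3 replicate 1 against the 3 naive brain libraries, the differences were 3.26 for H2-Aa, 2.76 for H2-Ab1, 2.96 for H2-Eb1 and 2.32 for Cd74, none called. No naive brain library had many such reads, so the remaining day 3 libraries have no counterpart there. All 8 T cell markers were called lower at day 3, from -2.76 for Cd8a to -4.81 for Cd2, and 1 of 8 microglia markers, Tmem119, was called lower at -4.03 ± 0.89 (adjusted p = 0.0124). Of the 10 monocyte and macrophage markers 1 was called higher, Chil3 at 5.48 ± 1.11 (adjusted p = 0.00533), and none of the 8 dendritic or 5 plasmacytoid dendritic cell markers was called. The log2 differences of 8 of the 10 monocyte and macrophage and of 8 of the 8 dendritic cell markers were above 0. So were those of 6 of 8 B cell and 3 of 5 plasmacytoid dendritic cell markers, beside a median of 0.50 over all genes tested. All 8 microglia markers were below 0, with a median of -2.56. The part of these cell types in the class II values was not tested.

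At day 30 against naive brain, class II genes were lower. All 10 log2 differences were below 0, with a median of -2.80 beside 0.19 over all genes tested. H2-Ab1 fell to 86.8 ± 54.3 CPM in day 30 brain, against 1488 ± 678 CPM in naive brain (-4.15 ± 0.76, limma adjusted p = 0.00659). H2-Eb1 (-3.68 ± 0.83, adjusted p = 0.0352) and H2-DMb1 (-4.90 ± 1.04, adjusted p = 0.0289) fell as well, which makes 3 of 10 called lower, beside 50 of all genes tested (0.224%). The H2-DMb1 value rests on 108, 3 and 0 reads in the 3 day 30 libraries. No gene at all was called higher (0%), while 1990 genes had an unadjusted p under 0.05 in either direction, edgeR called 0 up and 6 down and DESeq2 158 up and 67 down.

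Cd74 was at -2.89 ± 0.73 (adjusted p = 0.0652) and H2-Aa at -2.87 ± 0.83 (adjusted p = 0.151), both short of the threshold. The other genes not called were H2-Oa at -2.73, H2-Ob at -2.16, H2-DMa at -1.51, Ciita at -0.93 and H2-DMb2 at -0.26 (adjusted p from 0.272 to 0.961). For 8 of the 10 genes, all but H2-DMb2 and Ciita, every day 30 library was below every naive brain library, beside 6.03% of all genes tested. Of the microglia markers, 3 of 8 were also called lower, namely Tmem119 (-4.07), C1qa (-3.96) and Fcrls (-3.83), and no T cell marker was called (adjusted p from 0.606 to 0.947). Log2 differences were below 0 for 8 of 8 microglia, 7 of 8 dendritic cell and 5 of 5 plasmacytoid dendritic cell markers. The same held for 8 of 8 T cell, 5 of 10 monocyte and macrophage and 3 of 8 B cell markers. Outside the microglia list none of these was called. Whether fewer reads from any of these cell types account for the class II values was not tested.

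None of the 3 calls held without day 30 replicate 2, naive brain replicate 2 or naive brain replicate 3 (adjusted p from 0.0807 to 0.234), without naive brain replicate 1 the H2-Eb1 call was lost (adjusted p = 0.0768), and without day 30 replicate 3 only H2-Ab1 remained called. All 3 were also lost with edgeR, a pseudocount of 0.1, no filter, median centring or a term for the olfactory receptor reads, and over all alternatives the adjusted p ran over 7.03e-08 to 0.904 for H2-Ab1, 0.000608 to 0.99998 for H2-Eb1 and 2.79e-05 to 1 for H2-DMb1. The direction of all 3 was the same under every alternative. In the libraries with few olfactory receptor reads, day 30 replicate 1 against naive brain, the differences were -5.11 for H2-Ab1, -5.61 for H2-Eb1 and -2.20 for H2-DMb1 (adjusted p from 0.387 to 1). All called genes split into 29 up and 90 down for unscaled CPM and 4 up and 8 down after quantile normalization.

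**Figure D2:**
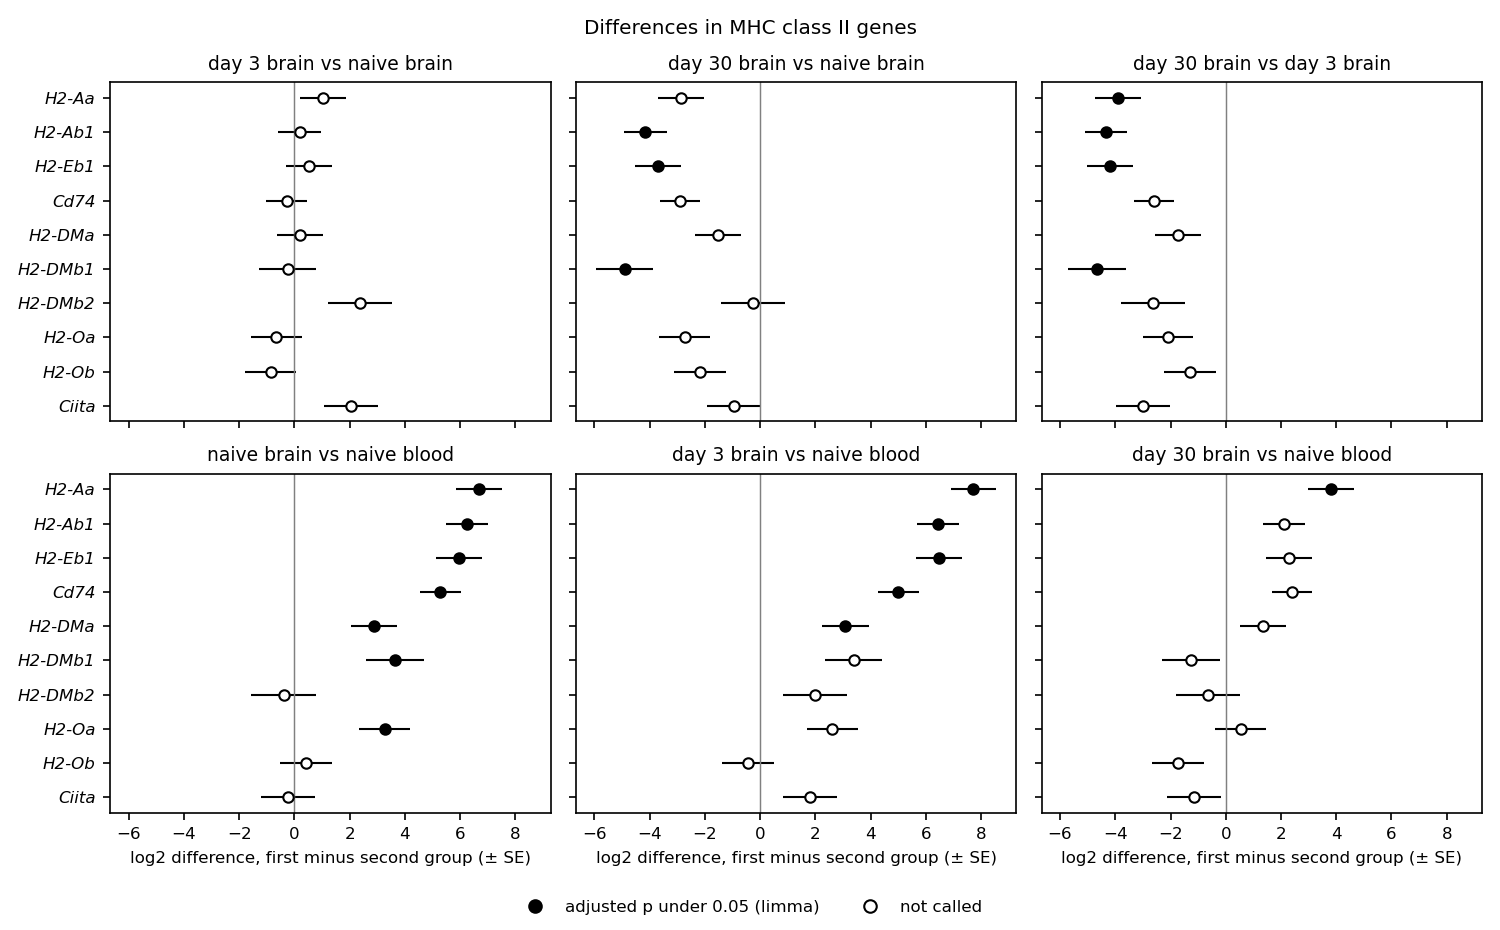
Log2 difference (first minus second group) ± SE from limma for the 10 genes in each of 6 comparisons, with the zero line in grey. Filled points have an adjusted p under 0.05. At day 30 against day 3 all 10 points lie below 0 and the filled ones are H2-Aa, H2-Ab1, H2-Eb1 and H2-DMb1.

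Day 30 against day 3 follows the class II genes from the early to the late stage after stroke. Again all 10 differences were below 0, with a median of -2.81 beside -0.15 over all genes tested. All 3 chains and H2-DMb1 fell, at -4.34 ± 0.76 for H2-Ab1 (adjusted p = 0.000942), -4.20 ± 0.83 for H2-Eb1 (adjusted p = 0.00432), -3.91 ± 0.83 for H2-Aa (adjusted p = 0.0112) and -4.65 ± 1.04 for H2-DMb1 (adjusted p = 0.0190, all limma). Those 4 of 10 stand beside 31 genes called lower (0.139%) and 26 called higher (0.116%) among all genes tested. For H2-DMb1, day 30 replicates 2 and 3 held 3 and 0 reads. Cd74 was at -2.61 ± 0.73 (adjusted p = 0.120) and Ciita at -2.99 ± 0.98 (adjusted p = 0.302), and the other 4 lay between -2.63 (H2-DMb2) and -1.30 (H2-Ob), none called. The 3 chains, Cd74 and Ciita were lower in every day 30 than in every day 3 library, beside 5.65% of all genes tested.

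Same-numbered day 30 and day 3 libraries deviated together, and with the replicate number as a block Cd74 was called as well (-2.61, adjusted p = 0.00823, range over all alternatives 1.89e-09 to 0.9996). Then 5 of the 10 genes were called, and 115 of all genes tested in place of 57. The labels do not say that a shared number means a shared animal, batch or day. Without day 3 replicate 1 the H2-Ab1 call remained, and H2-Aa was at -2.79 (adjusted p = 0.206), H2-Eb1 at -2.98 (0.135) and H2-DMb1 at -3.16 (0.270). The H2-Aa call was also lost without day 30 replicate 1 (adjusted p = 0.123), and the H2-DMb1 call without day 30 replicate 2 or 3 (0.0897 and 0.189). Over all alternatives the adjusted p ran over 9.49e-16 to 0.606 for H2-Ab1, 1.90e-10 to 0.663 for H2-Eb1, 1.36e-12 to 0.843 for H2-Aa and 2.65e-05 to 0.869 for H2-DMb1, and the direction was the same throughout.

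Within the class with few olfactory receptor reads, 1 library each, the day 30 minus day 3 differences were -8.50 for H2-Aa, -7.87 for H2-Ab1, -8.57 for H2-Eb1 and -4.94 for H2-DMb1. Within the class with many, 2 libraries each, they were -1.61 for H2-Aa, -2.57 for H2-Ab1, -2.02 for H2-Eb1 and -4.51 for H2-DMb1 (adjusted p from 0.190 to 0.615). The chains were thus lower at day 30 in both classes, by less in the class with many. All called genes split into 0 up and 8 down after median centring, 51 up and 120 down by DESeq2 and 7 up and 28 down with edgeR.

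Some markers of class II-bearing cells moved in this comparison too. The 8 dendritic cell markers took 0.00736 to 0.0268% of reads in day 30 brain and 0.0592 to 0.0828% in day 3 brain, and the 5 plasmacytoid dendritic cell markers 0.0441 to 0.0753% in day 30 brain and 0.204 to 0.610% in day 3 brain, with no overlap in either. Of the 8 dendritic cell markers 1 was called, the lectin Clec10a, which fell (-4.96 ± 1.14, limma adjusted p = 0.0248). Of the 5 plasmacytoid dendritic cell markers 1 was called, Ly6d, which early B cells also make and which fell (-4.89 ± 0.97, adjusted p = 0.00432). None of the 10 monocyte and macrophage or 8 B cell markers was called. Of the T cell markers 3 of 8 rose, Cd3g (3.25), Lck (3.35) and Cd2 (3.48), and no microglia marker was called (adjusted p from 0.699 to 0.999). Their part in the fall of class II genes was not tested.

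Naive brain against naive blood compares CD8 T cell samples of the 2 tissues without stroke. Of the 10 genes 7 were higher in naive brain, beside 1478 of all genes tested (6.61%, and 0.975% lower). H2-Aa averaged 994 ± 186 CPM in naive brain and 15.4 ± 19.7 CPM in naive blood (SD, n = 3 each), a log2 difference of 6.69 ± 0.83 (limma adjusted p = 1.96e-08). H2-Ab1 (6.25 ± 0.76), H2-Eb1 (5.95 ± 0.83) and Cd74 (5.29 ± 0.73) were also higher, with adjusted p from 1.44e-08 to 3.83e-07. H2-DMb1 at 3.64 ± 1.04 (adjusted p = 0.0189), H2-Oa at 3.27 ± 0.91 (0.0158) and H2-DMa at 2.88 ± 0.83 (0.0206) were higher as well. H2-Ob at 0.42, Ciita at -0.23 and H2-DMb2 at -0.39 were not called. The median was 3.45 for the 10 genes beside -0.37 over all genes tested, and the 7 called genes were those with no overlap between the groups, beside 15.6% of all genes tested.

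All 3 naive brain libraries had few olfactory receptor reads and all 3 blood libraries had many, so tissue and class cannot be told apart here. A term for the class is set by the stroke groups alone, as only they hold both classes. There H2-Aa was at 9408 CPM in day 3 replicate 1 against 676 and 1282, but 24.9 CPM in day 30 replicate 1 against 311 and 299. A call kept with this term therefore does not separate tissue from class. With the term, the 3 chains were still called, Cd74 was at 4.13 (adjusted p = 0.0786, range over all alternatives 2.58e-20 to 0.0786) and H2-DMb1 turned to -0.63 (adjusted p = 0.9995, range 0.00407 to 0.9995). The calls of H2-DMa, H2-DMb1 and H2-Oa were lost without naive brain replicate 3 (adjusted p from 0.0658 to 0.146), that of H2-DMb1 without naive brain replicate 2 (0.0938), those of H2-DMa and H2-Oa without naive blood replicate 2 (0.211 and 0.135), and that of H2-Oa without naive blood replicate 3 (0.0578). All called genes split into 693 up and 870 down for unscaled CPM, 2882 up and 12 down after median centring and 1318 up and 2481 down by DESeq2. All 8 microglia markers were higher in naive brain, from 3.20 for Sall1 to 8.31 for C1qa, as were 4 of 5 plasmacytoid dendritic cell markers. So were 4 of 8 T cell markers, from 2.53 for Cd8a to 4.09 for Cd3e, and 3 of 10 monocyte and macrophage markers, Lyz2 (5.004), Itgam (2.93) and Ly6c2 (2.65). No dendritic cell marker was called. Siglech, of the plasmacytoid list, was at 7.21 and held 13962 of the 26305 reads of that list in naive brain replicate 2. In naive brain replicate 3 it held 16365 of 25628. Which cells made the Siglech reads was not determined. The part of the marked cell types in the class II values was not tested.

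Day 3 brain against naive blood gave 5 of 10 genes higher, beside 1.1% of all genes tested (and 0.085% lower), and the members' median was 3.24 beside 0.03. H2-Aa was at 7.72 ± 0.83, H2-Eb1 at 6.48 ± 0.83, H2-Ab1 at 6.44 ± 0.76 and Cd74 at 5.01 ± 0.73 (limma adjusted p from 7.30e-10 to 2.36e-06), and these 4 were called under every alternative. H2-DMa was at 3.09 ± 0.83 (adjusted p = 0.0398, range over all alternatives 0.000116 to 0.584), and its groups overlapped. The H2-DMa call was lost without day 3 replicate 1 or 3, naive blood replicate 1 or 2, or naive brain replicate 1. H2-DMb1 was at 3.39 ± 1.04 (adjusted p = 0.102), and the 3 chains, Cd74, H2-DMb1 and Ciita had no overlap between groups, beside 7.54% of all genes tested. In the libraries with many olfactory receptor reads, 2 of day 3 against 3 of blood, H2-Aa was at 6.61, H2-Ab1 at 5.15, H2-Eb1 at 5.26 and Cd74 at 3.71, all called. All called genes split into 438 up and 135 down for unscaled CPM and 452 up and 149 down after quantile normalization. The markers called higher were 5 of 8 for microglia, 5 of 5 for plasmacytoid dendritic cells, 2 of 8 for dendritic cells (Cd209a and Itgax) and 3 of 10 for monocytes and macrophages, and no T cell marker was called. Their part was not tested.

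Day 30 brain against naive blood gave 1 of 10, H2-Aa at 3.82 ± 0.83 (limma adjusted p = 0.00628, range over all alternatives 4.91e-08 to 0.220), beside 0.676% of all genes tested called higher and 0.0358% lower. The median was 0.95 for the 10 genes and -0.05 over all genes tested. H2-Ab1 at 2.097 ± 0.76 (adjusted p = 0.257) and Cd74 at 2.40 ± 0.73 (0.115) were not called, though every day 30 library was above every blood library for these 2 genes, beside 7.35% of all genes tested. The H2-Aa call was lost without day 30 replicate 2 or 3 or naive blood replicate 2 (adjusted p from 0.0666 to 0.0871), and without day 30 replicate 1 H2-Eb1 and Cd74 were called too (both 0.0366). In the libraries with many olfactory receptor reads, 2 of day 30 against 3 of blood, H2-Aa was at 5.01 (adjusted p = 0.0190). All called genes split into 7 up and 4 down after median centring and 221 up and 66 down by DESeq2. Of the markers, 4 of 8 for microglia, 3 of 10 for monocytes and macrophages, 2 of 5 for plasmacytoid dendritic cells and 1 of 8 for dendritic cells (Cd209a at 5.46) were called higher, and no T cell marker was called. Their part was not tested. The comparisons share libraries with each other, those with blood its 3 libraries, so their results are not independent.

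The other genes of the pathway were described from lists by role. Of 7 genes of the promoter assembly that Ciita docks on, Rfxank, a subunit of RFX, was called once, higher in naive brain than in blood (2.97 ± 0.89, adjusted p = 0.0261). Its level was 94.6 to 153 CPM in naive brain, against 4.87 to 27.4 CPM in naive blood. No other gene of that list was called in any of the 6 comparisons.

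Of 7 genes on the route from interferon gamma to Ciita, Ifng itself, the gene of the cytokine, had 139.8, 3.18 and 26.8 CPM in day 3 brain, 794, 38.6 and 114 CPM in day 30 brain, 503, 363 and 468 CPM in naive brain, against 9.19, 4.39 and 1.06 CPM in naive blood. It was lower at day 3 than in naive brain (-4.12 ± 0.94, adjusted p = 0.0155) and higher than in blood in naive brain (6.51 ± 0.94, 7.76e-07) and at day 30 (4.99 ± 0.94, 0.00105). At day 30 against day 3, where the chains fell, Ifng was at 2.60 ± 0.94 (adjusted p = 0.446, not called). Irf1, a transcription factor that acts on Ciita, was higher in naive brain than in blood (3.99 ± 0.84, adjusted p = 0.000889), and the 2 receptor chains, Jak1 and Jak2 were called in none of the 6 comparisons.

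The 6 endosomal processing genes code for enzymes that cut or unfold antigen and trim the invariant chain. Against blood, 6 of 6 were higher in day 3 brain, 4 of 6 in day 30 brain and 5 of 6 in naive brain. In naive brain the differences were 6.13 ± 0.76 for Lgmn (legumain), 5.96 ± 0.76 for Ctsd (cathepsin D), 5.04 ± 0.75 for Ctsb (cathepsin B) and 4.69 ± 0.70 for Ctss (cathepsin S, which trims the invariant chain), with adjusted p from 2.26e-08 to 2.15e-06. Ifi30, the endosomal thiol reductase GILT, was the exception, at 2.05 ± 0.85 (adjusted p = 0.118). It had 1084, 250.2 and 154 CPM in day 3 brain, 60.5, 6.43 and 32.1 CPM in day 30 brain, 129, 79.7 and 121 CPM in naive brain, against 6.49, 41.1 and 56.7 CPM in naive blood. Every day 3 library was above every other library. Ifi30 was the gene of this list that fell at day 30 against day 3 (-3.82 ± 0.85, adjusted p = 0.0190). Ctss, by contrast, had 787 to 2149 CPM in day 30 brain and 543 to 6307 CPM in day 3 brain, which overlapped.

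Cd83, which protects surface class II from the ubiquitin ligase March1, was the gene of the 3 turnover genes that passed the test. It was higher than in blood in naive brain (4.27 ± 0.88, adjusted p = 0.000716) and in day 3 brain (4.14 ± 0.88, 0.00284). The level of Cd83 was 335, 50.04 and 61.6 CPM in day 3 brain, 54.1, 15.2 and 14.9 CPM in day 30 brain, 112, 80.5 and 154 CPM in naive brain, against 9.19, 3.29 and 3.52 CPM in naive blood. Of 3 costimulatory genes of antigen presenting cells, Cd86, a ligand of CD28, was higher in naive brain than in blood (2.74 ± 0.85, adjusted p = 0.0333), and Cd80 and Cd40 were called in none of the 6 comparisons. H2-Eb2 and H2-Ea-ps, the other class II chain genes of the table, reached at most 18.7 and 7.57 CPM, and neither was called. H2-Eb2 had 6.96 to 18.7 CPM in day 3 brain, 0 to 1.59 CPM in day 30 brain, 0 to 2.71 CPM in naive brain and 0 to 3.79 CPM in naive blood, so that every day 3 library was above every other library.

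**Figure D3:**
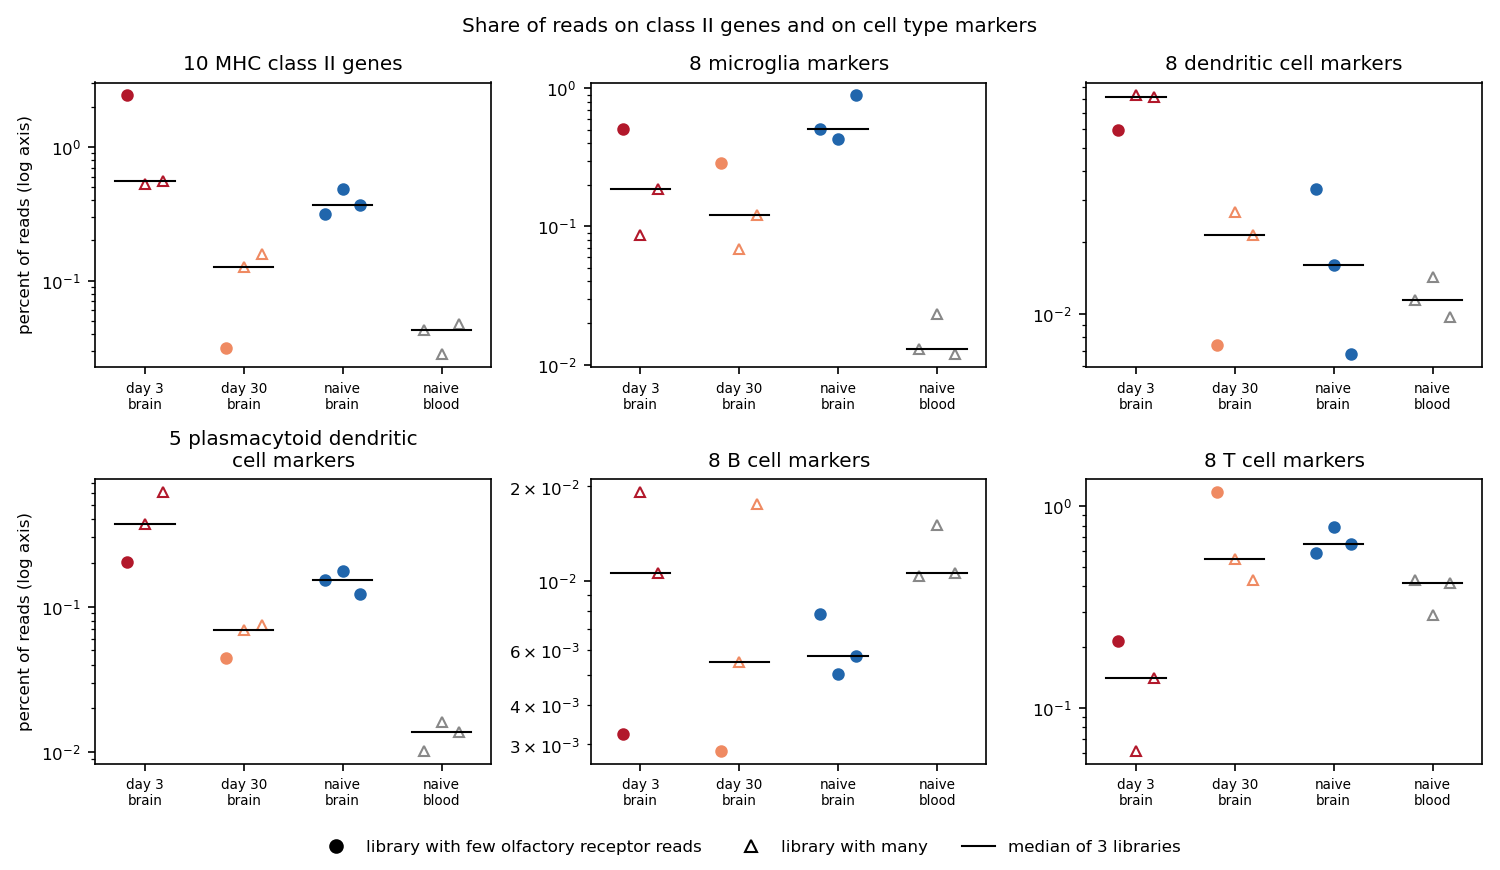
Share of all reads, in percent on a log axis, taken by the 10 MHC class II genes and by the markers of 5 cell types in every library, with day 3 brain, day 30 brain, naive brain and naive blood from left to right. Symbols separate libraries with few and many olfactory receptor reads, and the bar is the median of 3. The class II share is highest in day 3 brain (0.531 to 2.44%), as are the dendritic and plasmacytoid dendritic cell shares, while the microglia share is high in naive brain (0.433 to 0.889%).

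Reads of the chains were also set against the marker reads of 5 cell types. Reads of the 3 chains per 100 reads of the 8 microglia markers were 283, 397 and 170.1 in day 3 brain, 1.67, 87.6 and 50 in day 30 brain, 27.5, 53.6 and 20.02 in naive brain and 25.8, 16.02 and 90.98 in naive blood. The 3 day 3 libraries had the 3 highest ratios of all 12. All 8 microglia markers had log2 differences below 0 at day 3 against naive brain (median -2.56), so this ratio moves with both of its terms. Per 100 reads of the dendritic cell markers, there were 2419, 418 and 385 chain reads in day 3 brain, 64.9, 224 and 283 in day 30 brain, 415, 1454 and 2629 in naive brain and 29.1, 26.1 and 112 in naive blood. Day 3 and naive brain overlapped in that ratio, and both lay above day 30, which lay above blood but for 1 library. Per 100 reads of the plasmacytoid dendritic cell markers the ranges were 51.7 to 703 in day 3 brain, 10.8 to 86.8 in day 30 brain, 91.1 to 146 in naive brain and 23.2 to 78.4 in naive blood. Per 100 reads of the monocyte and macrophage markers they were 60.4 to 159 in day 3 brain, 1.12 to 22.98 in day 30 brain, 39.7 to 78.4 in naive brain and 2.72 to 8.09 in naive blood. Ly6c2 gave most reads of that list in every library but day 3 replicate 1. Siglech gave the most reads of the plasmacytoid list in naive brain. Which cells made these reads was not determined.

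Day 30 replicate 1 stood apart. It had the largest share of T cell marker reads of all 12 libraries, 1.17%, a microglia share of 0.286% and a dendritic cell share of 0.00736%, and it held 327 chain reads among 6844661, or 0.407 per 100 T cell marker reads. In day 30 replicates 2 and 3 that ratio was 10.98 and 14.1, in day 3 brain 224 to 667, in naive brain 23.8 to 29.6 and in naive blood 0.775 to 2.62. The T cell markers were themselves lower at day 3, so this ratio moves with both of its terms.

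B cells are another usual source of class II. The 8 B cell markers took 0.00324 to 0.0192% of reads in day 3 brain, 0.00286 to 0.0176% in day 30 brain, 0.00503 to 0.00781% in naive brain and 0.0104 to 0.0151% in naive blood, with naive brain below blood and every other pair of groups overlapping, and 0 of 8 was called in any of the 6 comparisons. Bank1 reached 85.1 CPM (naive brain replicate 3) and Cd79b, a chain of the B cell receptor, 83.1 CPM (day 30 replicate 3), whereas Ms4a1, a B cell membrane protein, reached 13.02 CPM and Cd79a, the partner chain of Cd79b, 11.6 CPM (both naive blood replicate 3). The 10 monocyte and macrophage markers took 0.294 to 0.898% in day 3 brain, 0.261 to 0.427% in day 30 brain, 0.243 to 0.350% in naive brain and 0.0459 to 0.169% in naive blood. Most of these reads were of Ly6c2 in every library but day 3 replicate 1. It held 25723 of 29243 in day 30 replicate 1 and 14062 of 45756 in day 3 replicate 1. This share therefore largely follows 1 gene, and which cells made its reads was not determined. Markers of CD4 T cells, natural killer cells, neutrophils and endothelium took at most 0.0367% of reads in any library.

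**Figure D4:**
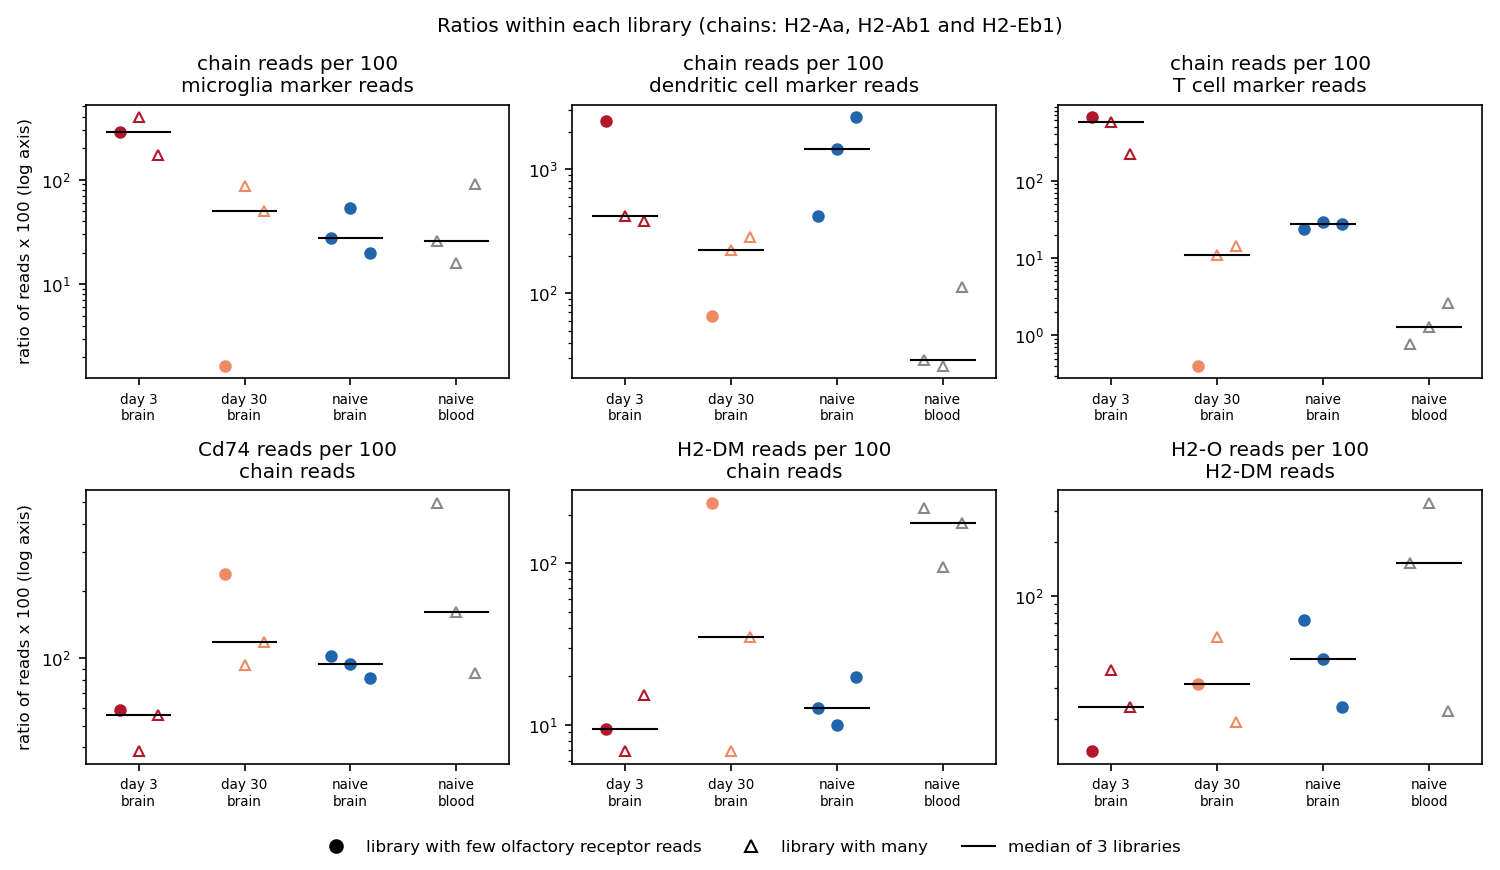
Ratios of reads within each library on a log axis, with day 3 brain, day 30 brain, naive brain and naive blood from left to right and the chains being H2-Aa, H2-Ab1 and H2-Eb1. Symbols separate libraries with few and many olfactory receptor reads, and the bar is the median of 3. Against microglia markers the chains are highest in the day 3 libraries (170.1 to 397), and Cd74 against the chains is lowest there (38.4 to 58.9). All 8 microglia markers had log2 differences below 0 at day 3 against naive brain, so the first ratio moves with both of its terms.

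The genes whose profile over the 12 libraries was most like the mean profile of the 10 were found by the root mean square difference of centred log2 values, among 10718 genes compared, as a description with no test. Igsf6, an immunoglobulin family membrane protein, came first at 0.68. Mir692-1 followed at 0.71, then Gpx1, a glutathione peroxidase, at 0.79, Rogdi at 0.80 and Klf4, a transcription factor, at 0.80. Tnfrsf21 was at 0.82, Cd68, a lysosomal protein of macrophages and microglia, at 0.83, Cd83 at 0.83, Fth1, the ferritin heavy chain, at 0.83 and Itgam, the CD11b integrin chain of myeloid cells, at 0.85. The 10 genes themselves were between 0.85 (Cd74) and 1.87 (Ciita) from their own mean profile. Cd68 had 3018, 248 and 266 CPM in day 3 brain, 305, 102 and 134 CPM in day 30 brain, 892, 666 and 995 CPM in naive brain, against 37.3, 17.005 and 37.7 CPM in naive blood, high in day 3 replicate 1 as the chains were.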

How the data were processed

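Per the labels' protocols, cells were sorted by flow cytometry and cDNA was made with a SMART-Seq v4 ultra-low input kit. The kit adds no molecular identifiers, so floors cover counting error only. The tools named are FastQC 0.11.2, STAR 2.5.3a, featureCounts of Subread and edgeR, with the mm10 build, per the submitters' processing notes. For strand setting, annotation and filters, nothing is given in the sources used here.

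One table of 23937 genes was deposited. Its signal is gene counts divided by a library size that the authors had scaled, per-million reads (CPM), with column sums from 526580.2 to 2086823. Values were whole multiples of 1 read within 1e-06 reads (100% of values), and reads were recovered from them. The values had been planned for as plain CPM, and the scaled ones were tested in the same way. Any 2 libraries held equal counts at no more than 3.61% of genes, and each counted as a separate sample.

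With limma 3.58.1 (R 4.3.3), log2(CPM + 1) was fitted with 4 group means over 12 libraries, by empirical Bayes with a trend. A gene was tested when 3 or more libraries reached 1 CPM, which 22352 genes did and 1585 did not. The two-sided p-values had a Benjamini-Hochberg adjustment per comparison, over 6 comparisons, with a threshold of 0.05. Differences understate the change of low genes. The fit was run on simulated counts with the same setting of spread for all genes and libraries. These lacked the split by olfactory receptor reads within groups, so that run does not show how the fit performs here.

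Groups come from the sample titles. Replicate numbers are not stated to mark a shared animal, batch or day. In day 30 and day 3, same-numbered libraries deviated together from the group means, with correlations of 0.530, 0.284 and 0.165. A pairing there cannot be told apart from the split by olfactory receptor reads. That split, over 1463 genes at 1296 unscaled CPM, is the largest gap between libraries on the log2 scale.

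Alternatives tried were library quality weights, unscaled CPM, another pseudocount (0.1 or 5), another filter (none or 5 CPM), median centring, quantile normalization, edgeR 4.0.16 and DESeq2 1.42.0 on the recovered reads, a fit of the 2 groups alone, a replicate block, a term for the olfactory receptor class and leaving out each library. Fits within each class were added after seeing the data.

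The 10 class II genes, 6 pathway lists, 10 marker lists and motifs were chosen with earlier results of these data known. All 10 genes are named, with up to 4 called genes per pathway list and the 10 most like genes of at least 10 CPM. A further few list and marker genes were named after their values were seen. Of the listed symbols, Ly6g was not matched and Adgre1 was found as Emr1. Positions come from GENCODE vM21 and promoters from RefSeq, and proteins were not used here.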

Additional observations from a re-analysis of the deposited data

Results flagged for a closer look

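For 4 genes the change from naive brain differed between day 30 and day 3 by a test of the difference itself (limma, adjusted over all genes tested). The day 30 minus day 3 difference was -3.91 for H2-Aa, -4.34 for H2-Ab1, -4.20 for H2-Eb1 and -4.65 for H2-DMb1 on the log2 scale, with adjusted p of 0.0112, 0.000942, 0.00432 and 0.0190 in that order. All 3 chains were lower in 3 of 3 day 30 than in any day 3 library, and for H2-DMb1 the groups overlapped. Day 30 replicates 2 and 3 held 3 and 0 H2-DMb1 reads. Naive brain is common to both changes, so this difference is the same as that between day 30 and day 3. Without day 3 replicate 1, H2-Ab1 stayed past the threshold (-3.05, adjusted p = 0.0320, range over all alternatives 9.49e-16 to 0.606) and the other 3 did not. Groups of 3 libraries were not screened for single outlying libraries.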

How the results depend on the processing

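Each result was recomputed under 25 to 27 alternatives. Of the 60 differences (10 genes in 6 comparisons), 20 were called, of which 19 kept their direction under every alternative and 7 also their call, and H2-DMb1 in naive brain against blood is the exception in direction. Of the 40 not called, 24 kept their direction. Groups of 3, shallow libraries and low counts limit the precision, above all for H2-DMb1, H2-DMb2, H2-Ob and Ciita. H2-DMb1 held 108, 3 and 0 reads in day 30 brain and 20, 15 and 19 in naive blood. A group left with 1 library is assumed to vary like the others. The cause of the changes below was not tested.

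The median log2 difference over all genes, in the order of the comparisons below, was 0.50, 0.19, -0.15, -0.37, 0.03 and -0.05 as reported. Quantile normalization gave 0.02, 0.06, 0.02, -0.14, -0.12 and -0.06, median centring gave -0.56, -0.65, 0.07, 0.90, 0.24 and 0.37, CPM without scaling gave 1.13, 0.57, -0.45, -1.05, -0.06 and -0.44, and DESeq2 gave 1.03, 0.45, -0.32, -1.02, -0.07 and -0.31.

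In the 5 comparisons other than day 30 against day 3, the deviations of same-numbered libraries had correlations from -0.42 to 0.15. There the replicate block added calls of H2-Aa and Cd74 in day 30 against naive brain (adjusted p = 0.0201 and 0.00231), H2-DMb1 in day 3 against blood (0.0452) and Cd74 in day 30 against blood (0.0120), and removed none. In day 30 against day 3, where same-numbered libraries deviated together, it changed no call but that of Cd74.

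For day 3 against naive brain, the number of genes called in all, 160 as reported, was 44 under a pseudocount of 0.1, 45 under no filter, 5 under median centring or the olfactory receptor term, 56 under quantile normalization, 2104 under library quality weights, 17 under edgeR, 975 under DESeq2, 314 under the replicate block, 0 under only libraries with few olfactory receptor reads and 22 to 666 when each library was left out in turn. The number of class II genes called, 0 as reported, was 1 under unscaled CPM or DESeq2. The sign turned for Cd74 to 0.71 (unscaled CPM), 1.01 (quantile normalization), 0.87 (edgeR), 1.06 (DESeq2), 0.49 (the olfactory receptor term) and 2.32 (only libraries with few olfactory receptor reads), for H2-DMb1 to 0.72 (unscaled CPM), 0.50 (quantile normalization), 1.01 (edgeR), 1.22 (DESeq2), 2.60 (the olfactory receptor term) and 2.74 (only libraries with few olfactory receptor reads), for H2-Oa to 0.32 (unscaled CPM), 0.35 (quantile normalization), 0.58 (the olfactory receptor term) and 0.71 (only libraries with few olfactory receptor reads), for H2-Ob to 0.081 (unscaled CPM), 0.38 (the olfactory receptor term) and 0.90 (only libraries with few olfactory receptor reads), for H2-Aa to -0.023 (median centring), for H2-Ab1 to -0.87 (median centring) and -0.77 (library quality weights), for H2-Eb1 to -0.54 (median centring) and -0.35 (library quality weights), for H2-DMa to -0.84 (median centring) and -0.58 (library quality weights). Leaving out 1 library at a time moved across 0 H2-Aa (-0.076 to 1.82), H2-Ab1 (-1.10 to 0.92), H2-Eb1 (-0.70 to 1.27), H2-DMa (-0.74 to 1.01), Cd74 (-1.58 to 0.56) and H2-DMb1 (-1.74 to 0.89).

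For day 30 against naive brain, the number of genes called in all, 50 as reported, was 2 under a pseudocount of 0.1 or median centring, 1 under no filter, 5 under the stricter filter, 119 under unscaled CPM, 12 under quantile normalization, 256 under library quality weights, 6 under edgeR, 225 under DESeq2, 85 under a fit of the 2 groups alone, 121 under the replicate block, 0 under the olfactory receptor term or only libraries with few olfactory receptor reads and 1 to 532 when each library was left out in turn. The number of class II genes called, 3 as reported, was 0 under a pseudocount of 0.1, no filter, median centring, edgeR, the olfactory receptor term or only libraries with few olfactory receptor reads, 1 under the stricter filter or quantile normalization, 5 under unscaled CPM, a fit of the 2 groups alone or the replicate block and 0 to 4 when each library was left out in turn. The sign turned for H2-DMb2 to 0.23 (unscaled CPM), 0.11 (DESeq2), 1.57 (the olfactory receptor term) and 0.36 (only libraries with few olfactory receptor reads). Leaving out 1 library at a time moved across 0 H2-DMb2 (-0.57 to 0.31) and Ciita (-2.48 to 0.11).

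For day 30 against day 3, the number of genes called in all, 57 as reported, was 31 under a pseudocount of 0.1, 24 under no filter, 265 under unscaled CPM, 8 under median centring, 134 under quantile normalization, 97 under library quality weights, 35 under edgeR, 171 under DESeq2, 93 under a fit of the 2 groups alone, 115 under the replicate block, 140 under the olfactory receptor term, 0 under only libraries with few olfactory receptor reads, 15 under only libraries with many olfactory receptor reads and 26 to 115 when each library was left out in turn. The number of class II genes called, 4 as reported, was 2 under a pseudocount of 0.1, no filter or library quality weights, 7 under unscaled CPM, 0 under median centring, only libraries with few olfactory receptor reads or only libraries with many olfactory receptor reads and 1 to 5 when each library was left out in turn.

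For naive brain against blood, the number of genes called in all, 1696 as reported, was 2894 under median centring, 704 under quantile normalization, 4169 under library quality weights, 3799 under DESeq2, 35 under the olfactory receptor term and 768 to 2124 when each library was left out in turn. The number of class II genes called, 7 as reported, was 4 under unscaled CPM or quantile normalization, 3 under the olfactory receptor term and 4 to 7 when each library was left out in turn. The sign turned for Ciita to 0.071 (a pseudocount of 5), 1.03 (median centring), 0.86 (edgeR), 0.42 (DESeq2) and 0.041 (the olfactory receptor term), for H2-Ob to -0.77 (unscaled CPM), -0.64 (quantile normalization), -0.23 (DESeq2) and -1.44 (the olfactory receptor term), for H2-DMb2 to 0.88 (median centring) and 0.65 (quantile normalization), for H2-DMb1 to -0.63 (the olfactory receptor term). Leaving out 1 library at a time moved across 0 Ciita (-1.27 to 1.32).

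For day 3 against blood, the number of genes called in all, 264 as reported, was 573 under unscaled CPM, 75 under median centring, 601 under quantile normalization, 569 under DESeq2, 135 under only libraries with many olfactory receptor reads and 139 to 391 when each library was left out in turn. The number of class II genes called, 5 as reported, stayed within 1.5 times that number under all alternatives. Leaving out 1 library at a time moved across 0 H2-Ob (-1.32 to 0.20).

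For day 30 against blood, the number of genes called in all, 159 as reported, was 94 under a pseudocount of 5, 92 under no filter, 276 under unscaled CPM, 11 under median centring, 287 under DESeq2, 296 under the replicate block, 70 under the olfactory receptor term, 35 under only libraries with many olfactory receptor reads and 87 to 213 when each library was left out in turn. The number of class II genes called, 1 as reported, was 0 under no filter, median centring, a fit of the 2 groups alone or the olfactory receptor term, 2 under unscaled CPM or the replicate block and 0 to 3 when each library was left out in turn. The sign turned for H2-DMb1 to 0.052 (edgeR), for H2-Oa to -0.070 (edgeR), -0.47 (DESeq2), -0.076 (the olfactory receptor term) and -0.013 (only libraries with many olfactory receptor reads). Leaving out 1 library at a time moved across 0 H2-Oa (-0.31 to 1.65).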

Other observations

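Ciita did not keep a fixed ratio to the chains. Per 100 reads of the 3 chains, Ciita had 0.709, 5.43 and 2.18 reads in day 3 brain replicates 1 to 3, 5.50, 4.44 and 2.46 in day 30 brain, 4.99, 1.18 and 0.0428 in naive brain and 121, 85.4 and 31.9 in naive blood. The 3 blood libraries had the highest ratios, and naive brain replicate 3 had the lowest. All 3 blood libraries had many olfactory receptor reads, and Ciita reads cannot be told apart from Dexi reads where the exons overlap.

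The relation of the I-A chains to each other also varied. H2-Aa reads per 100 H2-Ab1 reads were 102, 94.6 and 228 in day 3 brain, 65.1, 406 and 206 in day 30 brain, 116, 64.8 and 50.7 in naive brain and 35.5, 18.2 and 161 in naive blood. H2-DM reads per 100 chain reads were 9.45, 6.88 and 15.3 in day 3 brain, 237, 6.96 and 34.9 in day 30 brain, 12.7, 10.1 and 19.9 in naive brain and 221, 95.1 and 177 in naive blood. Day 30 replicate 1 lay above the 3 blood libraries in that ratio, and the other 5 stroke libraries lay below them. These ratios are not corrected for gene length and were compared between libraries only, with no test. H2-DM reads include those of H2-DMa, which cannot be told apart from Brd2 reads where the exons overlap.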
